A study of Mus musculus with 2 samples.

Results

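AP-1 is the name of a group of transcription factors built from pairs of basic leucine zipper (bZIP) proteins, and the genes described here are 10 of its members and partners. Rows of the count table were taken by gene name: Fos, Fosb and Fosl2 of the FOS subfamily, Jun, Junb and Jund of the JUN subfamily, Atf3 and Batf3, and the small MAF genes Maff and Mafk. All 10 were among the 35275 genes of the table, and 6 of them had at least 50 reads over both libraries, the minimum for a gene to count as measured, which 9999 genes reached. The study sequenced total RNA of TEa cells sorted from mouse spleen, in 2 libraries, 1 per group. TEa cells are CD4 T cells of C57BL/6 background with a transgenic receptor for a peptide of the class II chain I-E alpha, which BALB/c mice carry and C57BL/6 mice lack. In the Exhaust group the hosts of the transfer were CB6F1 mice, a cross of BALB/c with C57BL/6 in which the antigen is a self protein. In the Effector group the hosts were wild-type C57BL/6 mice with a skin graft from BALB/c. The groups carry the submitters' names, and "in Exhaust" and "in Effector" below refer to the 1 library of each. The series set out to compare responses to abundant and to moderate antigen. Host strain and graft differ between the groups together with the antigen, so these cannot be told apart. The labels give no age, sex, time after transfer or number of animals.

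FOS and JUN proteins pair through a row of leucines and bind the DNA sequence TGACTCA with the basic stretch before it. JUN proteins can also pair with one another, whereas FOS proteins need a JUN partner. Engagement of the T cell receptor induces Fos and Jun within minutes through MAP kinases, and AP-1 then binds beside NFAT at cytokine genes such as Il2. NFAT that acts without AP-1 is known to drive genes of anergy and exhaustion. ATF3 and BATF3 pair with JUN proteins, and BATF3 is best known as a factor of cross-presenting dendritic cells. Small MAF proteins have a DNA-binding zipper but no activation domain, and they take their direction from partners such as NRF2 (gene Nfe2l2) and the BACH repressors.

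The promoters of 5 measured members are printed because Fos and Jun lie on the lower side of the comparison and Fosl2 and Mafk on the higher side, with Junb as the most abundant member. Each is the 250 bases before the RefSeq start, 5' to 3' on the gene's strand, from build GRCm38.p6. Capitals mark matches, on either strand, to any of the motifs named after the sequences.
Fos, chr12:85473640-85473889, plus strand: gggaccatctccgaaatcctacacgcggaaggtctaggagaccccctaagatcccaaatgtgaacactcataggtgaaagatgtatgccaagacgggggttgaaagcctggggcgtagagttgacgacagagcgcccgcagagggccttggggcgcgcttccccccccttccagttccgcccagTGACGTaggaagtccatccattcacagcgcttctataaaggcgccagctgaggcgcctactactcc
Jun, chr4:95052223-95052472, minus strand: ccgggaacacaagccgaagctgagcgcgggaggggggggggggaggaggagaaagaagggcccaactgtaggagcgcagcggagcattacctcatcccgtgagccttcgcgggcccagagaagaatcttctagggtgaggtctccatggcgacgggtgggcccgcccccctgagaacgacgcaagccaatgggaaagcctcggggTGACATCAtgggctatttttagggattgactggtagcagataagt
Junb, chr8:84978749-84978998, minus strand: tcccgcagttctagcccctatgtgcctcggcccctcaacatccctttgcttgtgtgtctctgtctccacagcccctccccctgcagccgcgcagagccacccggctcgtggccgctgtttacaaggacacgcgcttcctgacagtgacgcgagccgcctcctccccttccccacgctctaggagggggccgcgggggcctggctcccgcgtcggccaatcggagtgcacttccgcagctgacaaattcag
Fosl2, chr5:32136222-32136471, plus strand: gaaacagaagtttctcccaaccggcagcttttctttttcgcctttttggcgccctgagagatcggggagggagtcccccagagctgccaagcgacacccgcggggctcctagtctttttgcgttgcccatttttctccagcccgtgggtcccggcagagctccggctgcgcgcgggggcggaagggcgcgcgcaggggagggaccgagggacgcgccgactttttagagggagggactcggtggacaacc
Mafk, chr5:139791286-139791535, plus strand: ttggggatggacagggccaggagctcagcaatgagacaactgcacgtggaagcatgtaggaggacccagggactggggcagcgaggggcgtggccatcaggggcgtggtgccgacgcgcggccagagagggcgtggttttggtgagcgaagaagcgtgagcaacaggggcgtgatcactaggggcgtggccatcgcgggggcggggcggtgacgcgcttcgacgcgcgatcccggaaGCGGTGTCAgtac
The motifs searched on both strands were the AP-1 site TGACTCA, the cyclic AMP response element TGACGTCA, the shorter TGACGT, which lies within it, the sequence TGACATCA, the antioxidant response core TGACNNNGC and the CArG box bound by serum response factor. Fos held TGACGT 66 to 61 bases before its start, a sequence found in 6.47% of 32851 promoters of the same length. Jun held TGACATCA 45 to 38 bases before its start, against 2.93% of all promoters. Mafk held the antioxidant response core 13 to 5 bases before its start, against 10.2%. No match to any of the 6 motifs lay in the windows of Junb and Fosl2. Of the members not printed, Maff, which has 3 RefSeq starts, held the full element TGACGTCA before one of them (1.55% of all promoters) and TGACATCA and the antioxidant response core before the others, and Atf3 held TGACGT read on the other strand. TGACTCA, found in 4.46% of all promoters, lay in none of the 12 windows of the 10 genes, and neither did a CArG box (1.47%). Sites more than 250 bases before the start were not searched, so a CArG box further upstream, also of Fos, would be missed. For 7 of the 10 members the RefSeq start was also the gene start of the count table. Starts in the GENCODE M21 annotation differ for some. There Fosl2 starts further upstream (32135801 instead of 32136472), as do Batf3 and Atf3, and Jund further downstream (70698949 instead of 70697739). The windows of these genes do not lie directly before the M21 starts.

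The libraries held 8508129 reads (Exhaust) and 7844445 reads (Effector). With 1 library per group there is no replicate check and no p-value. Each fold compares these 2 libraries, is the ratio of Exhaust to Effector counts after scaling by the trimmed mean of M-values (TMM), and has an exact 95% interval that covers counting error only. A gene is called higher or lower when the ratio is at least 2-fold and its interval excludes equality. In a bulk sample, fewer cells with a transcript and less transcript per cell cannot be told apart. Of 8 CD4 T cell markers all were measured, 1 was called lower and 7 were not called, with a median log2 ratio of -0.014 and in sum 103633 reads in the Exhaust library and 105747 in the Effector library. The lower one was Trac, the alpha chain constant gene of the T cell receptor, with 11561 reads in Exhaust and 22526 in Effector (2.11-fold lower). Cd4 had 15463 reads in the Exhaust library and 9272 in the Effector library, and Cd3e had 11432 in Exhaust and 7624 in Effector. Cd8a and the B cell gene Ms4a1 had 0 reads in both. The other CD8 marker, Cd8b1, had 81 reads in Exhaust and 164 in Effector and was called lower (2.19-fold). Among other B cell genes, Cd79a had 18 reads in Exhaust and 8 in Effector, and Cd79b had 2 and 12.

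Fos was lower and Fosl2 higher in the Exhaust library, and the JUN genes lay between equality and 2-fold on the lower side. Of the 6 measured members 1 was called higher, 1 lower and 4 neither. Over all measured genes 6.65% were called higher and 7.07% lower, 13.7% in all. The median log2 ratio of the 6 was -0.75, beside -0.0019 over all measured genes. All 6 members lay at least 1.5-fold from equality with an interval that excluded it, 4 lower and 2 higher. Of all measured genes 27.3% did so (13.6% lower and 13.7% higher). The members were chosen with earlier results of these data known, so these comparisons with all measured genes do not test the set. Of 28 other measured bZIP genes, among them Batf and Mafg, 8 passed the 1.5-fold rule. Most of the 6 members had read counts well above the minimum, whereas the background includes genes close to it, whose intervals are wider. Summed over the 10 members there were 4657 reads in the Exhaust library and 7402 in the Effector library, a total that was 1.72-fold lower in the Exhaust library and to which Junb gave the most reads of any member.

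**Figure D1:**
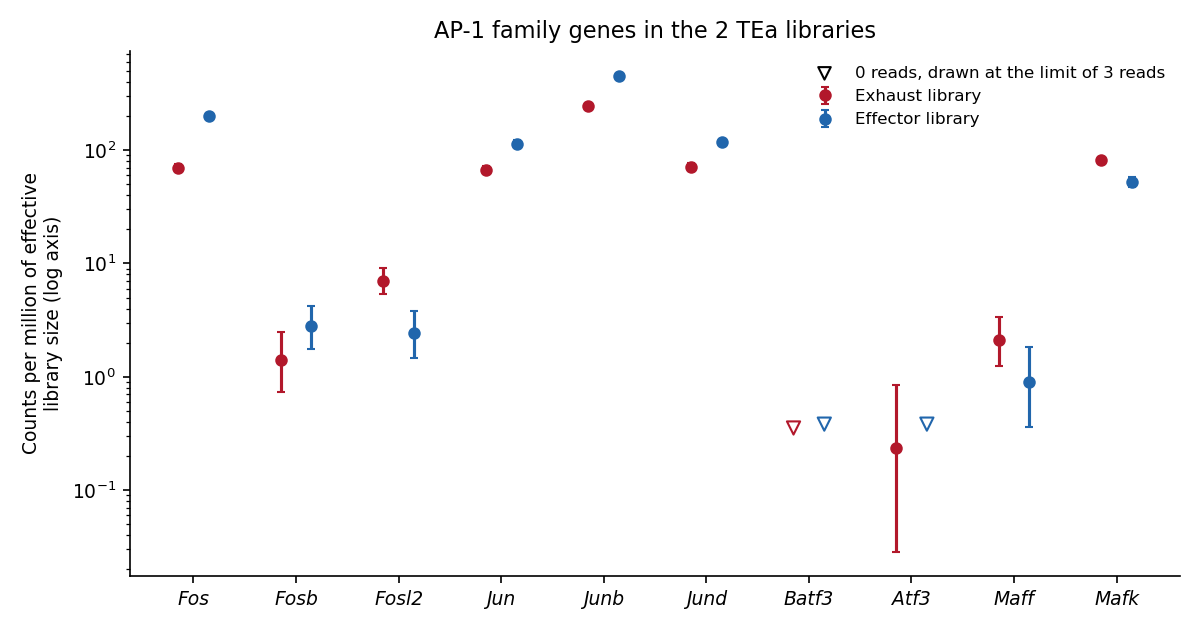
Level of each of the 10 AP-1 genes in the Exhaust library (red) and the Effector library (blue), as CPM (counts scaled to 1000000 per effective library) on a log axis, with bars for the 95% counting interval. Fos, Jun, Junb and Jund are lower in the Exhaust library and Fosl2 and Mafk higher, while Batf3 has 0 reads in both (open triangles, drawn at the limit of 3 reads).

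Fos (ENSMUSG00000021250, mm10 chromosome 12, 85473890 to 85477273, plus strand) encodes the founding FOS protein and is the prototype immediate early gene. It had 590 reads in the Exhaust library, against 1585 in the Effector library. Scaled to library size it fell to 69.4 CPM (counts scaled to a total of 1000000) in the Exhaust library, against 201.8 in the Effector library, which is 2.91-fold lower (2.64 to 3.20). This interval lies wholly beyond 2-fold. Of the 9999 measured genes 391 had a lower ratio than Fos.

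Fosl2 (ENSMUSG00000029135, chromosome 5, 32136472 to 32157831, plus strand) encodes FRA2, a FOS protein without the strong activation domain of FOS. It had 60 reads in the Exhaust library, against 19 in the Effector library, and was 2.92-fold higher (1.72 to 5.18). The change of Fosl2 was opposite in direction to that of Fos. Whether it was of similar size is not settled, given the wide interval of Fosl2. Fosl2 reached the read minimum mainly through the Exhaust library, where it was higher, which favours wide ratios. The lower limit of the Fosl2 interval is under 2-fold, and both counts are small. Of the measured genes 328 had a higher ratio.

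Fosb (ENSMUSG00000003545, chromosome 7, 19302721 to 19310045, minus strand), which encodes a close relative of FOS, had 12 reads in the Exhaust library and 22 in the Effector library. It was under the minimum of 50 reads, and its ratio of 0.504 (0.228 to 1.06) was not distinguishable from equality at this depth. Fosl1, which encodes FRA1 and is no member of the set, had 2 reads in the Exhaust library and 0 in the Effector library, too few for a ratio.

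The make-up of FOS transcripts differed between the libraries in a way that does not depend on how they are scaled. Fosl2 took 9.04% of all reads of the FOS subfamily in the Exhaust library (60 of 664, 6.97 to 11.5%), against 1.17% in the Effector library (19 of 1626, 0.705 to 1.82%). Fos took 88.9% in the Exhaust library (86.2 to 91.2%), against 97.5% in the Effector library (96.6 to 98.2%). The intervals of the libraries do not overlap for either gene. Fosl2 is the longer gene in the table, and per kilobase its share was 3.48% in the Exhaust library and 0.426% in the Effector library. Fos was thus the main FOS transcript in both libraries on either scale.

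Among the JUN genes, Junb (ENSMUSG00000052837, chromosome 8, 84976909 to 84978748, minus strand) was the most abundant. JUNB is a weaker activator than JUN on many promoters and a known partner of BATF in helper T cells. Junb had 2107 reads in the Exhaust library, against 3533 in the Effector library, and its scaled level was 1.81-fold lower (1.72 to 1.92), short of the 2-fold rule. In the GENCODE M21 annotation its exons overlap those of Prdx2 by 173 bases on the other strand. That Junb model reaches down to base 84974484, whereas the counted gene stops at 84976909. The overlap may therefore lie outside the counted gene. Prdx2 had 756 reads in the Exhaust library and 926 in the Effector library. The annotation and strand setting of the counting are not given, so whether Junb reads include any of the overlap is not known.

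Jun (ENSMUSG00000052684, chromosome 4, 95049034 to 95052222, minus strand) encodes c-JUN, the strongest activator of the subfamily. It had 572 reads in the Exhaust library, against 898 in the Effector library, 1.70-fold lower (1.53 to 1.89). Jund (ENSMUSG00000071076, chromosome 8, 70697739 to 70700616, plus strand) encodes JUND, which many resting cells express. It had 604 reads in the Exhaust library, against 925 in the Effector library, 1.66-fold lower (1.49 to 1.84). The intervals of Jun and Jund include each other's ratio, and that of Junb overlaps both, so the 3 ratios are not separated by counting error. Between 858 and 1057 of the measured genes had lower ratios than these 3.

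Shares within the JUN subfamily were close in the libraries. Junb took 64.2% of JUN reads in the Exhaust library (62.5 to 65.8%) and 66.0% in the Effector library (64.7 to 67.2%). Jun took 17.4% (16.1 to 18.8%) in the Exhaust library and 16.8% (15.8 to 17.8%) in the Effector library. Jund took 18.4% (17.1 to 19.8%) in the Exhaust library and 17.3% (16.3 to 18.3%) in the Effector library. For each JUN gene the intervals of the libraries overlap, unlike those of Fos and Fosl2 within the FOS subfamily. The balance between the subfamilies also differed. FOS genes made up 16.8% of all FOS and JUN reads in the Exhaust library (664 of 3947, 15.7 to 18.0%), against 23.3% in the Effector library (1626 of 6982, 22.3 to 24.3%).

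**Figure D2:**
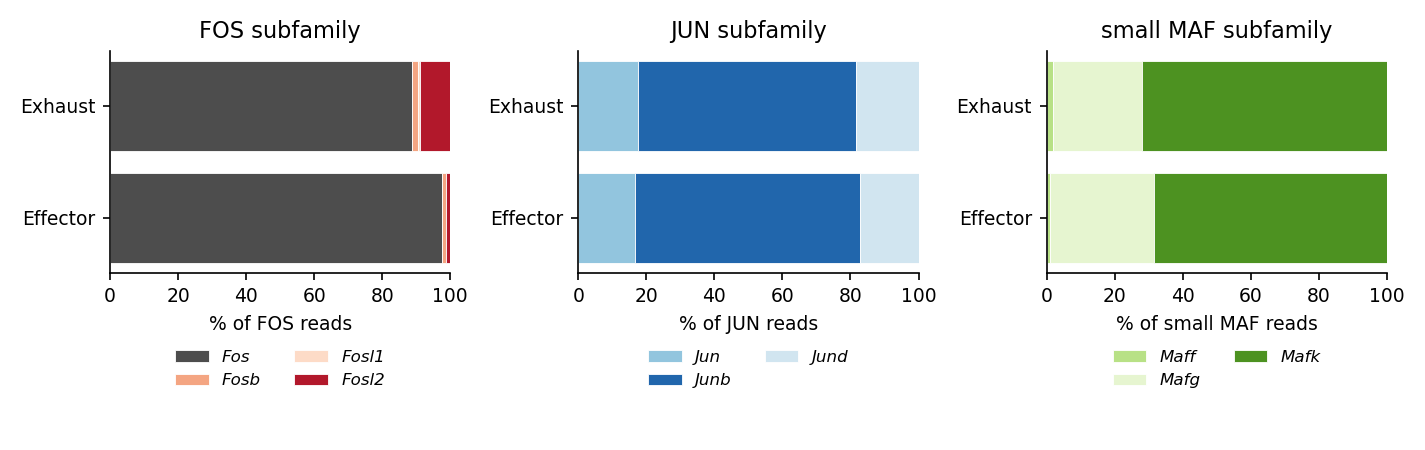
Shares of reads within the FOS, JUN and small MAF subfamilies, in percent of the subfamily's reads, for the Exhaust library (upper bar) and the Effector library (lower bar). The Fosl2 segment is 9.04% of FOS reads in the Exhaust library and 1.17% in the Effector library, whereas the JUN bars differ by less than 2 percentage points in every segment.

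The small MAF genes lay on the higher side. Mafk (ENSMUSG00000018143, chromosome 5, 139791513 to 139802653, plus strand) encodes the partner subunit of several cap'n'collar and BACH factors. It had 692 reads in the Exhaust library, against 413 in the Effector library, 1.55-fold higher (1.37 to 1.75), which does not reach the 2-fold rule. Maff (ENSMUSG00000042622, chromosome 15, 79347541 to 79359072, plus strand), a stress-inducible small MAF gene, had 18 reads in the Exhaust library and 7 in the Effector library. It was not measured by the rule, and its interval of 0.947 to 6.73 includes equality. Mafg, the other small MAF gene, had 253 reads in the Exhaust library and 185 in the Effector library, a ratio of 1.26 (1.04 to 1.54). Mafk took 71.9% of small MAF reads in the Exhaust library (68.9 to 74.7%) and 68.3% in the Effector library (64.4 to 72.0%), with overlapping intervals.

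The other members were near or at 0. Atf3 (ENSMUSG00000026628, chromosome 1, 191170296 to 191183340, minus strand), a stress-induced factor, had 2 reads in the Exhaust library and 0 in the Effector library. Batf3 (ENSMUSG00000026630, chromosome 1, 191098414 to 191108943, plus strand) had 0 reads in both libraries, and a count of 0 allows for up to 3. No fold is given for either gene. The defining markers of dendritic cells, where Batf3 is known to act, had few reads. Of 7 such genes none was measured, and the 7 together had 39 reads in the Exhaust library and 43 in the Effector library. Clec9a and Siglech had 0 reads in both libraries. Zbtb46 gave the most, with 26 reads in Exhaust and 22 in Effector, and Flt3 had 10 and 8.

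Per kilobase of the gene length in the table, Junb led in both libraries, at 134.8 RPKM (CPM per kilobase) in the Exhaust library and 244.4 in the Effector library. Fos came next, at 32.9 RPKM in the Exhaust library and 95.7 in the Effector library. Below them in the Exhaust library stood Mafk at 26.3, Jund at 24.7 and Jun at 21.1 RPKM. The counting intervals of Mafk and Jund overlap there, as do those of Jund and Jun. In the Effector library Jund stood at 40.9, Jun at 35.9 and Mafk at 17.0 RPKM, with no overlap between neighbours in that order. Fosl2, Maff and Fosb stayed at or under 1.21 RPKM in both libraries. The order depends on the gene lengths. With exon lengths of GENCODE M21, where Jund is 1668 instead of 2878 bases long, Jund reached 42.6 RPKM in the Exhaust library and stood above Fos at 29.5, while in the Effector library Jund at 70.6 stood below Fos at 85.8. With those lengths Mafk, at 20.9 RPKM in the Exhaust library, was close to Jun at 21.1 and stood below Jund. No counting intervals were computed with those lengths, so the order of Mafk and Jun there is not settled. In the Effector library Mafk, at 13.5 RPKM, stood below both.

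**Figure D3:**
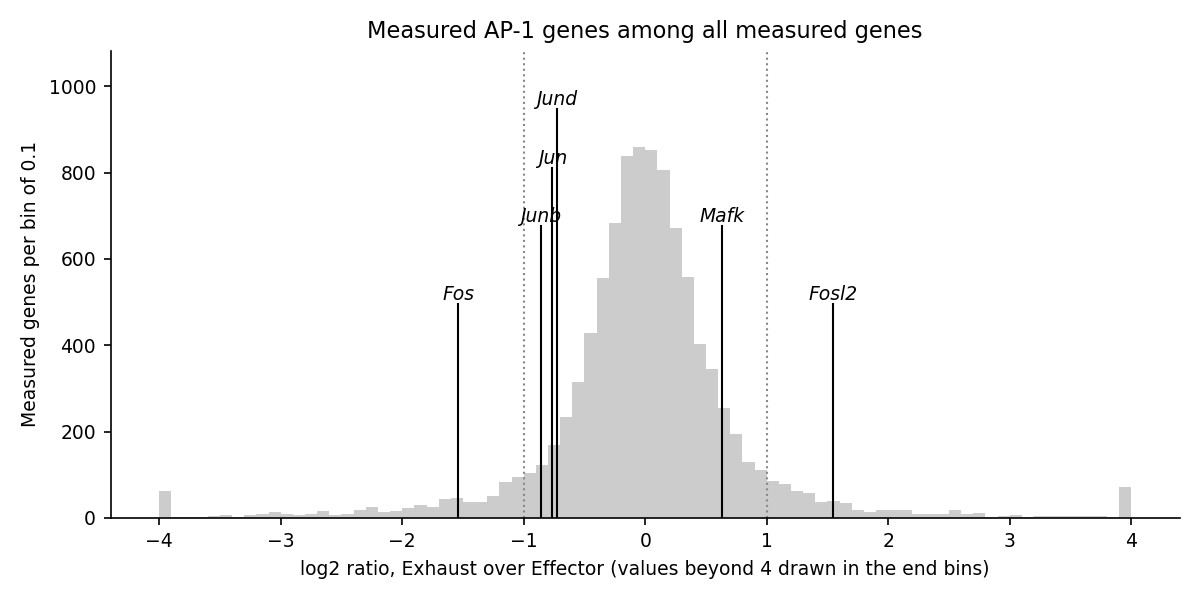
Number of measured genes by log2 ratio of Exhaust to Effector in bins of 0.1 (grey), with the 6 measured AP-1 genes as vertical lines of arbitrary height and dotted lines at 2-fold. Fos at -1.54 and Fosl2 at 1.55 lie beyond the dotted lines, and Junb, Jun, Jund and Mafk lie inside them.

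Other bZIP genes lay on both sides of equality. Of a list of 39 genes 28 were measured, with 4 called higher, 1 called lower and 23 not called. This is near the 13.7% called over all measured genes. The median log2 ratio of the 28 was 0.13. Nfil3, the gene of a repressor with roles in helper T cell cytokine expression, had 366 reads in the Exhaust library and 21 in the Effector library, 16.1-fold higher (10.4 to 26.4). Creb3l2, which encodes a membrane-bound factor cleaved under secretory load, had 448 reads in Exhaust and 32 in Effector, 12.9-fold higher (9.04 to 19.2). Maf, the large MAF gene of follicular helper and Th2 cells, had 866 reads in Exhaust and 169 in Effector, 4.74-fold higher (4.01 to 5.62). The fourth was Crem, a cyclic AMP responsive factor, at 2.13-fold (1.69 to 2.70). The lower one was Jdp2, whose product pairs with JUN proteins and represses AP-1 sites. It had 5 reads in the Exhaust library and 53 in the Effector library, 11.5-fold lower (4.62 to 36.8). Jdp2, Nfil3 and Creb3l2 each reached the read minimum mainly through the library where they were higher, which favours wide ratios. With a minimum of 500 reads, 16 of the listed bZIP genes were measured and 1 was called.

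Batf, the partner of JUN proteins and IRF4 in T cells, had 700 reads in the Exhaust library and 668 in the Effector library, a ratio of 0.969 (0.870 to 1.08). Per kilobase it stood at 86.3 RPKM in the Exhaust library and 89.1 in the Effector library. It thus stood below Junb in both libraries, and above Fos in the Exhaust library. In the Effector library Batf and Fos were close, with Fos at 95.7 RPKM (counting interval 91.1 to 100.6). No such interval was computed for Batf. With GENCODE M21 lengths Fos was at 85.8 RPKM in the Effector library, and Batf was not computed, so their order there is not settled. The partners of small MAF proteins, named here after their values were seen, were not called. Nfe2l2 had 621 reads in the Exhaust library and 706 in the Effector library, and Bach2 had 622 in Exhaust and 682 in Effector.

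Other immediate early genes were split. Of 20 measured, 3 were called higher, 4 were called lower and 13 were not called, beside 13.7% called over all measured genes. Their median log2 ratio was 0.22. Of the called genes, Egr3, Nr4a2 and Sik1 reached the read minimum mainly through the library where they were higher, which favours wide ratios. With a minimum of 500 reads, 17 of the immediate early genes were measured and 4 were called. The higher ones were Egr2, Egr3 and Nr4a2, all genes that T cell receptor signals induce. Egr2 had 1321 reads in the Exhaust library against 357 in the Effector library (3.42-fold, 3.04 to 3.86). Egr3 had 111 in Exhaust against 28 in Effector (3.67-fold, 2.40 to 5.76), and Nr4a2 had 63 against 15 (3.88-fold, 2.19 to 7.34). Fos, which receptor signals also induce, was lower. Nr4a1 was not called, with 664 reads in Exhaust and 552 in Effector (ratio 1.11, 0.992 to 1.25). The lower ones, all but Sik1 named to complete the count, were Sik1, the gene of a salt-inducible kinase (43 reads in Exhaust against 125 in Effector, 3.14-fold lower, 2.21 to 4.56), Ppp1r15a, which encodes the stress phosphatase subunit GADD34 (591 in Exhaust against 1700 in Effector, 3.11-fold lower, 2.83 to 3.42), Klf10 (2.32-fold lower) and Klf6 (2.16-fold lower).

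Fos and Egr1 are both textbook targets of serum response factor, and their reads were compared after the values were seen. Egr1 had 3134 reads in the Exhaust library, against 1650 in the Effector library, a ratio of 1.76 (1.65 to 1.87). Fos made up 15.8% of the reads of Fos and Egr1 together in the Exhaust library (14.7 to 17.1%), against 49.0% in the Effector library (47.3 to 50.7%). Of Fos and Jun together, Fos made up 50.8% in the Exhaust library (47.9 to 53.7%), against 63.8% in the Effector library (61.9 to 65.7%). Srf and its 5 cofactor genes were all measured and none was called. Elk4, which encodes a cofactor that joins SRF on the Fos promoter, had 1694 reads in the Exhaust library and 792 in the Effector library, 1.98-fold higher (1.82 to 2.15), just under the rule. Elk3 had a ratio of 1.67 and Elk1 of 1.55, whereas Mkl2 had 202 reads in the Exhaust library and 277 in the Effector library.

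**Figure D4:**
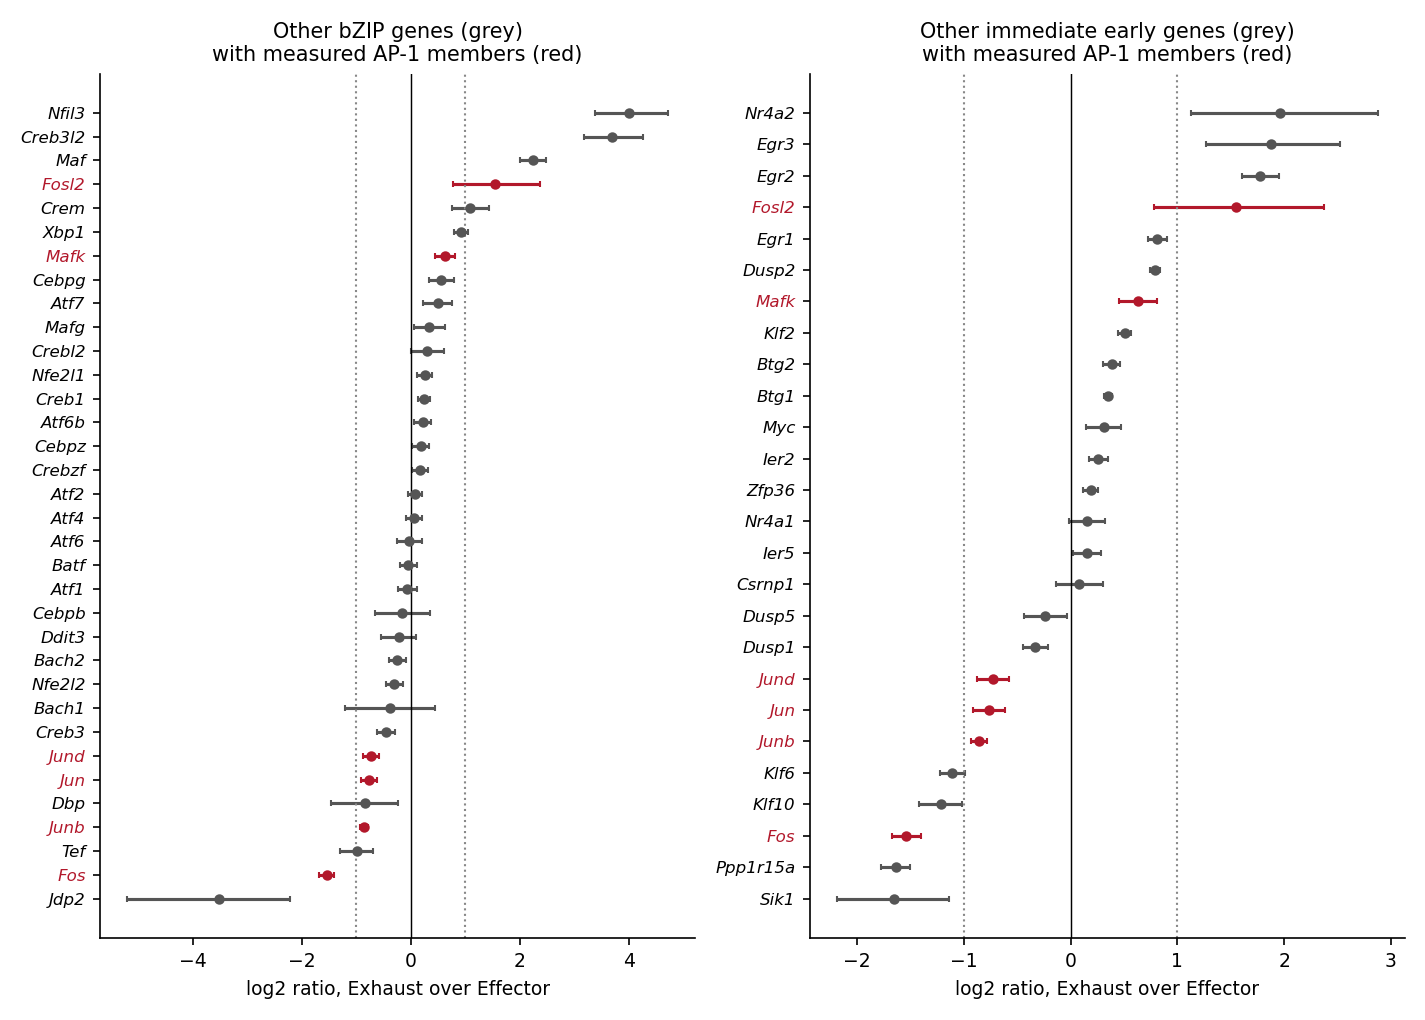
log2 ratios of Exhaust to Effector with 95% counting intervals for measured bZIP genes outside the set (left, grey) and other immediate early genes (right, grey), each beside the 6 measured AP-1 members (red); dotted lines stand at 2-fold. Fos lies next to the lowest gene, Jdp2, in the left panel, and in the right panel it lies with Sik1 and Ppp1r15a at the low end, opposite Egr2, Egr3 and Nr4a2.

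Of 27 measured kinase genes upstream of AP-1, 2 were called higher, 2 were called lower and 23 were not called, near the 13.7% called over all measured genes. Their median log2 ratio was -0.006. The higher ones were Rps6ka5, the gene of the nuclear kinase MSK1 (2.24-fold, 1.82 to 2.76), and Mapk11, which encodes p38 beta (2899 reads in the Exhaust library against 1307 in the Effector library, 2.05-fold, 1.92 to 2.19). The lower ones were Map2k6, a kinase gene upstream of p38 (47 reads in Exhaust against 98 in Effector, 2.26-fold lower), and Vrk1 (491 in Exhaust against 1018 in Effector, 2.24-fold lower), whose product is reported to phosphorylate JUN. None of 12 measured regulators of AP-1 protein stability or activity was called. The widest ratios among them were those of Trib1 (121 reads in the Exhaust library and 174 in the Effector library), Fbxw7 (419 in Exhaust and 274 in Effector), which encodes a ubiquitin ligase subunit that targets JUN, Csnk2a1 (508 in Exhaust and 337 in Effector) and Vprbp (957 in Exhaust and 702 in Effector).

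Of the 5 genes whose products bind composite sites with AP-1 factors, 2 were called higher, 1 lower and 2 neither. The share called over all measured genes was 13.7%. Nfatc1, the inducible NFAT gene, had 13792 reads in the Exhaust library, against 5015 in the Effector library, 2.54-fold higher (2.46 to 2.63). Irf4, the partner of BATF and JUN proteins, had 693 reads in Exhaust against 203 in Effector, 3.16-fold higher (2.70 to 3.71). Irf8 was 7.53-fold lower (5.65 to 10.2), at 54 reads in the Exhaust library and 376 in the Effector library. Nfatc2 had 1963 reads in Exhaust against 1089 in Effector, a ratio of 1.67.

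Of 16 genes with described AP-1 sites 8 were measured, of which 1 was called higher, 4 were called lower and 3 were not called. Over all measured genes 13.7% were called. Their median log2 ratio was -1.67, which falls in the gap between Vim at -0.727 and Il2 at -2.605. Each called gene reached the read minimum mainly through the library where it was higher, which favours wide ratios. With a minimum of 500 reads, 3 of these genes were measured and 1 was called. The cytokine gene Il2, the standard target of NFAT with AP-1, had 8 reads in the Exhaust library, against 45 in the Effector library, 6.08-fold lower (2.84 to 14.9). Ifng, at 24 reads in Exhaust against 203 in Effector, was also called lower. The same held for Fasl, at 14 reads in Exhaust against 253 in Effector, and for Il2ra, at 3 in Exhaust against 57 in Effector. Il4 went the other way, with 600 reads in the Exhaust library, against 2 in the Effector library, a ratio of 277 (76.4 to 2295). Il3, Il5, Il13, Csf2 and Timp1 had 0 reads in both libraries. None of 7 measured antioxidant element genes, where small MAF proteins are known to bind, was called. Gclm had 264 reads in the Exhaust library and 429 in the Effector library, and Txnrd1 had 801 in Exhaust and 1159 in Effector. Hmox1 had 33 reads in Exhaust and 39 in Effector, and Ftl1 had 9026 in Exhaust and 6986 in Effector.

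Heat shock genes moved between the same libraries. Of 10 measured 8 were called higher and 2 were not called, beside 6.65% called higher over all measured genes. The median log2 ratio was 1.49, with values of 20.5-fold for Hspa1b, 19.8-fold for Hspa1a, 5.15-fold for Hsph1 and 3.24-fold for Dnajb1. Hspa1a and Hspa1b are near-identical and can share reads. Markers of other cells were few. Of 5 B cell genes none was measured (20 reads in the Exhaust library and 21 in the Effector library in sum). Monocyte and macrophage genes summed to 202 reads in the Exhaust library and 83 in the Effector library, with 1 of 6 measured, Itgam (183 reads in Exhaust and 22 in Effector, called higher), which some activated lymphocytes also express, while Lyz2 had 10 reads in Exhaust and 37 in Effector, Csf1r had 4 in Exhaust and 18 in Effector, and Cd14 had 0 in Exhaust and 2 in Effector. Neutrophil genes summed to 67 reads in the Exhaust library and 114 in the Effector library, with 1 of 5 measured, Mpo (49 in Exhaust and 39 in Effector). S100a8 had 1 read in Exhaust and 30 in Effector, S100a9 had 2 and 32, Elane had 15 and 13, and Ly6g had 0 in both. Erythroid and platelet genes summed to 16 in Exhaust and 120 in Effector, with 1 of 7 measured. NK cell genes summed to 231 in Exhaust and 111 in Effector, with 2 of 4 measured, Klrb1c called higher and Klrd1 lower, while Ncr1 had 0 reads in the Exhaust library and 5 in the Effector library. Of the CD8 markers Cd8b1 had 81 reads in the Exhaust library and 164 in the Effector library and was called lower. The part of heat shock or of other cells in the AP-1 values was not tested.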

How the data were processed

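RNA of sorted spleen TEa cells was extracted with Trizol and turned into libraries from total RNA with a low-input kit, 1 per group, per the labels' protocols. The authors deposited 1 table of raw read counts per gene, with symbol, position and length per the file headers. STAR 2.6 and build mm10 are named per the submitters' processing notes; the counting program, strand setting and annotation were not given in the sources used here. The kit amplifies cDNA and the table records no molecular identifiers, so intervals cover counting error only and may be too narrow.

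Columns were mapped by their names. Effective library sizes came from TMM in edgeR 4.0.16 (R 4.3.3) over genes with at least 50 reads in both libraries together. Exact Clopper-Pearson 95% intervals came from scipy 1.17.1, and a count of 0 was set to a floor of 3 reads. RPKM used the length in the deposited table. The rule was tested on simulated data with known folds. The simulated counts held counting error only, so the test does not cover variation between animals or libraries. Members and lists were chosen with earlier results of these data known. All 10 members are named, with up to 4 measured genes per list having the largest absolute log2 ratio and those that complete a count of 5 or fewer; Egr1, Batf and other genes outside that rule were chosen after their values were seen. Promoters are RefSeq's (GRCm38.p6), and exon overlaps are from GENCODE M21. Alternatives changed the scaling (DESeq2 1.42.0, total counts, upper quartile, protein-coding genes), read minimum, depth, size rule and prior count.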

Additional observations from a re-analysis of the deposited data

How the results depend on the processing

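No paired analysis was possible because each group has 1 library and the labels carry no replicate numbers. Under the 4 other scalings, a minimum of 1 read, thinning of the deeper library and a prior count of 2, the calls and directions of Fos and Fosl2 were as in the report, and the log2 ratio of Fos lay between -1.54 and -1.52 and that of Fosl2 between 1.46 and 1.56. With a minimum of 500 reads Fosl2 was not measured, so 0 members were higher, and of all 6143 genes measured then 244 were higher and 264 lower. With 1 read as the minimum 1040 of 17739 genes were higher and 1102 lower. Where the whole interval had to lie beyond 2-fold, 0 members were higher and 1 lower (408 higher and 453 lower of all genes), since the interval of Fosl2 starts under 2-fold. At 4-fold 0 members were higher and 0 lower (220 higher and 238 lower of all genes). At 1.5-fold 2 were higher and 4 lower (1371 higher and 1359 lower of all genes). Genes called in the lists around AP-1 numbered 32 of 123 measured, and 13 of the 123 at 4-fold and 52 at 1.5-fold. With a minimum of 500 reads they numbered 17 of 89 measured. Over all measured genes 13.7% were called by the main rule and 27.3% at 1.5-fold. Counted per kilobase, the share of Fosl2 was 3.48% in the Exhaust library and 0.426% in the Effector library, that of Junb 74.6% in Exhaust and 76.1% in Effector, and that of Mafk 78.6% in Exhaust and 76.4% in Effector. With GENCODE M21 exon lengths, an alternative chosen after seeing the data, Junb took 62.8% of JUN transcripts in Exhaust and 64.7% in Effector. Depth limits Fosb, Maff, Atf3 and Batf3, for which no difference was detectable.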

Other observations

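A few bZIP genes lay under the minimum of 50 reads and were looked at after their values were seen. Cebpd, which encodes a factor of the C/EBP family induced by inflammatory signals, had 46 reads in the Exhaust library and 1 in the Effector library, a ratio of 42.5 with a counting interval of 7.26 to 1716. Nfe2, the gene of a cap'n'collar partner of small MAF proteins known from megakaryocytes, had 37 reads in the Exhaust library and 11 in the Effector library, a ratio of 3.11 (1.55 to 6.76). The immediate early gene Rhob had 35 reads in Exhaust and 12 in Effector, a ratio of 2.70 (1.37 to 5.71). Another immediate early gene, Ier3, went the other way, with 0 reads in the Exhaust library and 14 in the Effector library.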
